A study of Homo sapiens with 8 samples.

Results

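The kinases that phosphorylate splicing factors were followed at the mRNA level in HCT-8 colon cancer cells. They comprised 9 kinases, UHMK1, CLK1, CLK2, CLK3, CLK4, SRPK1, SRPK2, PRPF4B and DYRK1A, together with SF1, a splicing factor that UHMK1 phosphorylates. The 10 genes were chosen by symbol and matched to Ensembl identifiers, 1 for each symbol, among the 64253 genes counted in each library. All 10 passed the filter on low counts, which left 20305 genes. The study had selected UHMK1 as its top candidate kinase, in part by its p-values in these same libraries. PRPF4B was on its list of candidates. Tests of UHMK1 and PRPF4B therefore repeat a choice made from the same data. By other assays, the study reported UHMK1 as higher in HCT-8/FU cells and in HCT-8 cells given HCT-8/FU medium. These assays were RT-qPCR for its mRNA and Western blots for its protein.

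The study prepared 8 RNA-seq libraries, 2 replicates for each of 4 groups. HCT-8, a human line of colon cancer cells, responds to 5-fluorouracil (5-FU), whereas HCT-8/FU is a derived line resistant to the drug. Both were grown in unconditioned medium. The groups named CM of HCT-8 and CM of HCT-8/FU are HCT-8 cells that were given conditioned medium (CM), which is medium taken from cultures of the named cells after 48 h. CM of HCT-8 serves as the CM control. All groups therefore share the HCT-8 background. Resistance is represented by 1 line, so that any other difference between this line and HCT-8 cannot be told apart from resistance. The libraries held between 5804124 and 34881349 counts on genes. In HCT-8 replicate 1, HCT-8/FU replicate 2 and CM of HCT-8 replicate 1, between 19.96% and 29.6% of the records were not aligned, against 3.58% to 4.43% in the other 5. Of 9 colon epithelial markers, 8 exceeded 1 CPM (gene counts scaled so that every TMM-normalized library has the same total) in every library, the exception being CEACAM5. The summed level of 5 fibroblast markers was 8.19 to 13.8 CPM, with COL1A2 at 0 throughout, and that of 4 leukocyte markers was 0.384 to 1.86 CPM, with PTPRC and CD3E at 0. The 3 endothelial markers summed to 1.27 to 2.45 CPM.

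Introns are removed by the spliceosome, whose assembly depends on cycles of phosphorylation and dephosphorylation of its protein factors. SRPK1 and SRPK2 phosphorylate the arginine-serine repeats of SR proteins mainly in the cytoplasm and thereby govern their entry into the nucleus, whereas the CLK kinases act in the nucleus and release SR proteins from nuclear speckles. UHMK1, also called KIS, carries a U2AF homology motif (UHM) beside its kinase domain and phosphorylates SF1, which recognizes the branch point of introns. PRPF4B phosphorylates proteins of the tri-snRNP during spliceosome activation, and DYRK1A is a speckle-associated kinase with splicing factors among its many substrates. Kinase mRNA is what was counted here, so that neither protein level nor activity was measured, and in bulk RNA a smaller share of expressing cells and less RNA per cell cannot be told apart.

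UHMK1 was measured at 119 and 135 CPM in the replicates of HCT-8 and at 285 and 286 CPM in HCT-8/FU. The replicates of CM of HCT-8 gave 111 and 122 CPM, and those of CM of HCT-8/FU gave 205 and 203 CPM. In both pairs of groups every library on the resistant side lay above every library on the sensitive side. How many of all tested genes separate the groups in this way was not counted, for UHMK1 or any other member. The gene, ENSG00000152332, is on chromosome 1, plus strand, from 162497251 to 162529631 in GRCh38.

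CLK4, a dual-specificity kinase of SR proteins, followed the same pattern at a lower CPM. It was measured at 17.9 and 22.9 CPM in HCT-8 and at 41.4 and 40.4 CPM in HCT-8/FU. In the CM groups it stood at 24.5 and 18.8 CPM with CM of HCT-8, and at 33.5 and 31.2 CPM with CM of HCT-8/FU. The groups did not overlap in either pair. CLK4 (ENSG00000113240) lies on the minus strand of chromosome 5, from 178602664 to 178630615.

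PRPF4B was measured at 69.8 and 65.7 CPM in HCT-8 and at 141 and 130 CPM in HCT-8/FU. With CM of HCT-8 it stood at 59.96 and 40.5 CPM, and with CM of HCT-8/FU at 97.6 and 92.7 CPM. Its lowest value of all libraries was that of CM of HCT-8 replicate 2. PRPF4B (ENSG00000112739) lies on the plus strand of chromosome 6, from 4021267 to 4064983.

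SRPK1 was measured at 103 and 100 CPM in HCT-8 and at 159 and 187 CPM in HCT-8/FU. With CM of HCT-8 its replicates spread from 116 to 142 CPM, a range that contained both values with CM of HCT-8/FU, 133 and 135 CPM. SRPK1 thus separated the unconditioned groups but not the CM groups. SRPK1 (ENSG00000096063) lies on the minus strand of chromosome 6, from 35832966 to 35921342. Of its exonic bases, 28.1% lie opposite exons of LHFPL5, a gene that reached at most 14.8 CPM. Reads of both genes may be mixed, since the strand setting of the counting is not stated in the sources used here.

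The other 6 members moved less. CLK1 lay between 115 and 121 CPM in HCT-8 and between 117 and 124 CPM in HCT-8/FU, and between 85.3 and 106 CPM in the 4 CM libraries. CLK2, measured at 65.4 and 64.3 CPM in HCT-8, stood at 51.8 and 56.3 CPM in HCT-8/FU. The corresponding values of CLK3 were 92.4 and 92.1 CPM and 74.2 and 77.9 CPM. SF1 stood at 333 and 344 CPM in HCT-8, and at 251 and 267 CPM in HCT-8/FU. The group means in the CM control and with CM of HCT-8/FU were 66.1 and 54.8 CPM for CLK2, 91.8 and 74.7 CPM for CLK3, and 328 and 269 CPM for SF1. In each of these 3 genes, all 4 libraries on the resistant side lay below all 4 of the others. The share of all genes that do so was not counted. SRPK2 stood between 42.2 and 53.4 CPM except in HCT-8/FU, where it was 57.5 and 68.0 CPM. DYRK1A lay between 68.8 and 90.7 CPM in all 8 libraries.

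**Figure D1:**
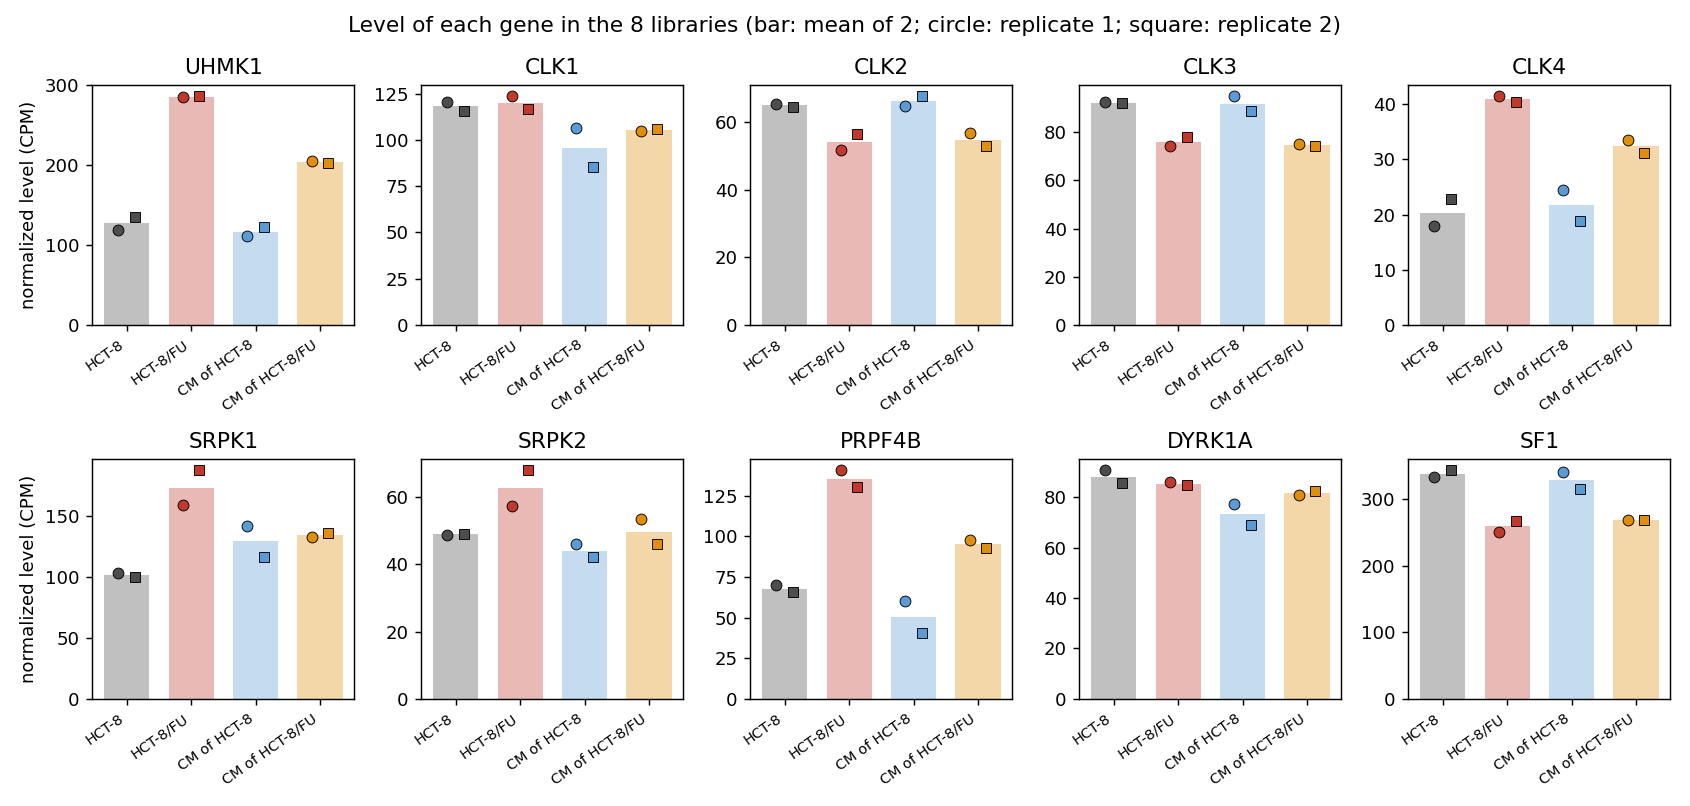
Normalized level (CPM, vertical axis from 0) of the 10 genes in each of the 8 libraries, by group; bars are means of 2 replicates, circles replicate 1 and squares replicate 2. UHMK1, CLK4 and PRPF4B stand higher on the resistant side of both pairs of groups, where CLK2, CLK3 and SF1 stand lower, and SRPK1 stands highest in HCT-8/FU.

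The bases just before the transcription start are shown for UHMK1 and CLK4, which stood higher in both comparisons, and for SRPK1, which did so in only 1 of them. They are 120 bases each, taken from RefSeq on GRCh38.p14 and ending 1 base before the start, at chr1:162497698-162497817 on the plus strand, chr5:178627051-178627170 on the minus strand and chr6:35921099-35921218 on the minus strand. The promoter table matched 9 of the 10 genes, PRPF4B being the exception. Capitals mark matches on either strand to the GC box GGGCGG, the cyclic AMP response core TGACG, the E-box CACGTG and the consensus site of NRF1.
UHMK1: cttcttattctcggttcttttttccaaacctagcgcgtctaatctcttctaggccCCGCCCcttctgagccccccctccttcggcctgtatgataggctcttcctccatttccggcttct
CLK4: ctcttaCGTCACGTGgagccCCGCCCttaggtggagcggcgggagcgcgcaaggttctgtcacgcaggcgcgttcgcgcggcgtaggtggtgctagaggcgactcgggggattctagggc
SRPK1: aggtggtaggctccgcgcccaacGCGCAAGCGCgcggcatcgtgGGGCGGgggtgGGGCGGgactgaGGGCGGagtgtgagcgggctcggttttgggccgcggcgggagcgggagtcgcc
Within the 250 bases before the start, the GC box was found 1 time in UHMK1, 2 times in CLK4 and 4 times in SRPK1, and 42.3% of 27326 promoters held it in a window of that length. The core of CLK4 overlaps its E-box. The core was present in 21.7% of all promoters, the E-box in 6.5% and the NRF1 site, found in SRPK1, in 5.52%. The full cyclic AMP response element TGACGTCA was found in none of these 3 windows and in 1.76% of all promoters. The same held for the letters CCAAT, for the ETS factor site CCGGAAG and for the TATA box TATAAA, which 33%, 8.82% and 11.1% of all promoters held. Members not shown here held some of these sites too. The core was found in CLK1, CLK3 and DYRK1A, the E-box in CLK2 and DYRK1A, and the NRF1 site in CLK1. CCAAT was found in SF1, and the GC box in all 9 matched genes. GC bases made up 48.4% of the UHMK1 window, 71.2% of that of CLK4 and 66.8% of that of SRPK1, against a median of 58%. No binding was measured, and these matches are descriptions of the sequence.

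The first comparison asked which of these kinases differ between resistant and sensitive cells. In HCT-8/FU, UHMK1, PRPF4B, CLK4 and SRPK1 rose compared to HCT-8, and none of the 10 members fell past both thresholds in the tests of edgeR or DESeq2, although 3 were lower at an unadjusted edgeR p under 0.05. The share of all genes at such an unadjusted p was not counted, in this or any later comparison. Differentially expressed (DE) genes were called with edgeR's quasi-likelihood test with 2 thresholds, a Benjamini-Hochberg false discovery rate (FDR) not above 0.05 and a log2 fold change of 0.58 (1.5-fold) or more in either direction. Among all genes tested, 13.2% were called higher in this comparison and 8.12% lower. UHMK1 rose 2.23-fold (log2 fold change 1.16, SE 0.081, edgeR adjusted p = 7.47e-08). PRPF4B rose 2.02-fold (log2 fold change 1.01, SE 0.13, edgeR adjusted p = 1.86e-05). CLK4 rose 1.95-fold (log2 fold change 0.97, SE 0.14, edgeR adjusted p = 5.34e-05), and SRPK1 rose 1.69-fold (log2 fold change 0.76, SE 0.10, edgeR adjusted p = 2.57e-05). With a correction for exonic GC content and length, SRPK1 stayed called at 0.67, while the calls of UHMK1, PRPF4B and CLK4 were lost at log2 fold changes of 0.52, 0.36 and 0.32.

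Another 4 members passed the FDR in the same comparison but did not reach the fold threshold. SRPK2 had a log2 fold change of 0.34 (edgeR adjusted p = 0.0234). The negative ones were SF1 with −0.39 (edgeR adjusted p = 5.19e-04), CLK3 with −0.28 (edgeR adjusted p = 0.0117) and CLK2 with −0.27 (edgeR adjusted p = 0.0275). Of all genes, 18.1% passed the FDR with a lower level in HCT-8/FU. CLK2 and CLK3 lost the FDR when TMM took CM of HCT-8 replicate 2 as its reference (edgeR adjusted p = 0.132 and 0.0680), and CLK2 and SF1 lost it with the GC and length correction (0.647 and 0.154). Over 17 alternatives the highest adjusted p was 0.680 for CLK2, 0.0897 for CLK3 and 0.204 for SF1. CLK1 and DYRK1A did not pass, with log2 fold changes of 0.03 (SE 0.095) and −0.04 (SE 0.085). The median log2 fold change was 0.19 over the 10 members and 0.0082 over all genes.

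Within the libraries of many records not aligned, which hold 1 replicate of each of these groups, the log2 ratio of HCT-8/FU to HCT-8 was 1.26 for UHMK1, 0.90 for PRPF4B, 1.18 for CLK4 and 0.86 for SRPK1. Within the remaining libraries the ratios were 1.07, 1.10, 0.86 and 0.67. Each of the 4 genes therefore stood higher in HCT-8/FU in both sets, with 1 library against 1 in each and no test.

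The second comparison, or CM comparison, asked which of the kinases differ in HCT-8 cells between CM of HCT-8/FU and its control, CM of HCT-8. PRPF4B, UHMK1 and CLK4 rose here too. No member fell past both thresholds in the tests of edgeR or DESeq2, although 3 were lower at an unadjusted edgeR p under 0.05. Of all genes, 7.97% were called higher and 1.28% lower. PRPF4B rose 1.94-fold (log2 fold change 0.96, SE 0.13, edgeR adjusted p = 8.41e-05) and UHMK1 rose 1.74-fold (log2 fold change 0.80, SE 0.080, edgeR adjusted p = 5.28e-06). CLK4 rose 1.53-fold (log2 fold change 0.61, SE 0.13, edgeR adjusted p = 0.00443). With the GC and length correction all 3 calls were lost, at 0.32 for PRPF4B, 0.17 for UHMK1 and −0.02 for CLK4. The call of CLK4 was also lost when CM of HCT-8 replicate 2 was left out (log2 fold change 0.40, edgeR adjusted p = 0.0636) or CM of HCT-8/FU replicate 1 was left out (0.56, edgeR adjusted p = 0.0549). Over all 17 alternatives the adjusted p of CLK4 in this comparison ran from 9.52e-06 to 0.960, the highest with the GC and length correction and the replicate number as a block.

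CLK3, SF1 and CLK2 again passed the FDR with values under the fold threshold, at log2 fold changes of −0.29, −0.29 and −0.27 (edgeR adjusted p = 0.0150, 0.00973 and 0.0364), where 8.49% of all genes passed the FDR with a lower level. All 3 lost the FDR with the other TMM reference (edgeR adjusted p = 0.0817 for CLK3, 0.0577 for SF1 and 0.167 for CLK2). The same held when HCT-8 replicate 2 or 1 of the replicates of CM of HCT-8/FU was left out, and in a fit of the compared groups only. Over 17 alternatives the adjusted p ran from 0.00780 to 0.164 for CLK3, from 0.00142 to 0.339 for SF1 and from 0.0232 to 0.592 for CLK2. SRPK2, DYRK1A, CLK1 and SRPK1 did not pass, at 0.18, 0.17, 0.15 and 0.07. Even so, the libraries of SRPK2 and DYRK1A did not overlap between the CM groups (edgeR adjusted p = 0.254 and 0.185). A lack of overlap between groups of 2 libraries was thus also seen in genes that did not pass the FDR. The median was 0.16 over the members and −0.059 over all genes. Both CM of HCT-8/FU libraries had few records not aligned, so that a ratio within a set of libraries exists only against CM of HCT-8 replicate 2. It was 0.74 for UHMK1, 1.23 for PRPF4B, 0.78 for CLK4 and 0.21 for SRPK1.

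**Figure D2:**
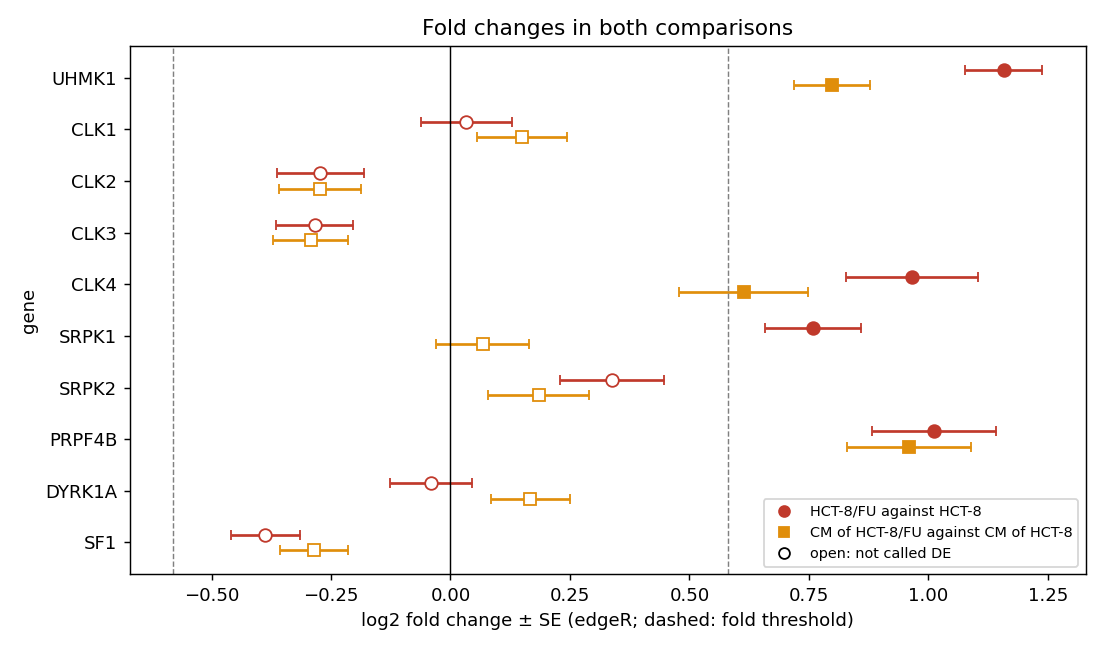
Log2 fold change (horizontal axis) with its SE for the 10 genes in HCT-8/FU against HCT-8 (circles) and in the CM comparison (squares); filled symbols are called DE and dashed lines mark the fold threshold of 0.58. UHMK1, CLK4 and PRPF4B are filled in both comparisons and SRPK1 only in the first, where it stands at 0.76 against 0.07 in the second.

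The difference between these 2 comparisons was tested in the same fit, where 7.69% of all genes were called. SRPK1 was the only one of the 10 members that was called. Its log2 fold change was larger by 0.69 in HCT-8/FU than with CM of HCT-8/FU (SE 0.14, edgeR adjusted p = 0.00448). This call was lost without HCT-8 replicate 2 (0.58, edgeR adjusted p = 0.0842), and, through the fold threshold, without HCT-8/FU replicate 2 (0.57, edgeR adjusted p = 0.0271) or CM of HCT-8 replicate 1 (0.54, edgeR adjusted p = 0.00140). Over 16 alternatives its adjusted p ran from 7.48e-06 to 0.0842. For UHMK1 the difference was 0.36 (SE 0.11, edgeR adjusted p = 0.0519), for CLK4 0.35 (SE 0.19, edgeR adjusted p = 0.294) and for PRPF4B 0.05 (SE 0.18, edgeR adjusted p = 0.910). The other 6 members lay between −0.21 (DYRK1A) and 0.15 (SRPK2), with edgeR adjusted p-values of at least 0.323.

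CM of HCT-8 is the control of the second comparison and was compared with HCT-8 in unconditioned medium. These libraries also enter the first and the second comparison, so that the values are not independent of those above. None of the 10 members was called by edgeR or by DESeq2, where edgeR called 8.15% of all genes. Among the members, 4 had an unadjusted p under 0.05 in the edgeR test, and the same number passed the FDR without the fold threshold, as did 19.4% of all genes. SRPK1 had a log2 fold change of 0.33 (edgeR adjusted p = 0.0287), DYRK1A of −0.27 (edgeR adjusted p = 0.0359), CLK1 of −0.31 (edgeR adjusted p = 0.0327) and PRPF4B of −0.46 (edgeR adjusted p = 0.0243). UHMK1 was at −0.13 (SE 0.081, edgeR adjusted p = 0.327). The other 5 lay between −0.16 (SRPK2) and 0.03 (CLK2). PRPF4B was called when CM of HCT-8 replicate 1 was left out, with a log2 fold change of −0.73 (edgeR adjusted p = 2.59e-06), the lowest adjusted p of its 17 alternatives, of which the highest was 0.460. Without CM of HCT-8 replicate 2 it stood at −0.17 and lost the FDR (edgeR adjusted p = 0.289), as did CLK1 at −0.15 (edgeR adjusted p = 0.275) and DYRK1A at −0.18 (edgeR adjusted p = 0.210). SRPK1 lost it without CM of HCT-8 replicate 1, at 0.20 (edgeR adjusted p = 0.124), and all 4 lost it when 1 of the replicates of HCT-8 was left out, whichever it was. Over 17 alternatives the highest adjusted p was 0.4998 for CLK1, 0.925 for DYRK1A and 0.337 for SRPK1.

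The order of the group means differed between the members, but many neighbouring means were not told apart by the tests. UHMK1, SRPK2 and PRPF4B stood highest in HCT-8/FU, then with CM of HCT-8/FU, then in HCT-8 and lowest in the CM control. CLK4 and SRPK1 shared the first 2 places, followed by CM of HCT-8 and then HCT-8. On the log2 scale the CM control differed from HCT-8 by 0.0098 in CLK4 (edgeR adjusted p = 0.973) and by −0.13 in UHMK1 (edgeR adjusted p = 0.327). The order of CLK4 was therefore not told apart from that of UHMK1. In SRPK2, cells given CM of HCT-8/FU differed from HCT-8 by 0.024 (edgeR adjusted p = 0.904). CLK2 stood highest in the CM control and SF1 in HCT-8, both lowest in HCT-8/FU, and CLK3 stood highest in HCT-8 and lowest with CM of HCT-8/FU. In CLK2, CLK3 and SF1 the groups on the resistant side were not told apart, and nor were HCT-8 and the CM control. The lowest edgeR adjusted p of these tests was 0.679, in SF1. CLK1 and DYRK1A were lowest with CM of HCT-8.

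Neighbouring group means were compared in the same fit. Between both groups on the resistant side, none of the 10 members was called by edgeR or DESeq2, although 5 had an unadjusted p under 0.05, and 3 passed the FDR with a higher level in HCT-8/FU, as did 6.11% of all genes. These were PRPF4B (log2 fold change 0.52, edgeR adjusted p = 0.0142), UHMK1 (0.49, edgeR adjusted p = 0.00173) and SRPK1 (0.36, edgeR adjusted p = 0.0264). With the GC and length correction all 3 lost the FDR, at 0.20 for PRPF4B (edgeR adjusted p = 0.592), 0.18 for UHMK1 (edgeR adjusted p = 0.554) and 0.31 for SRPK1 (edgeR adjusted p = 0.360). CM of HCT-8/FU was also compared with unconditioned HCT-8, its neighbour in the order of UHMK1, SRPK2 and PRPF4B. In this comparison 2 members rose past both thresholds, where 7.16% of all genes were called higher. UHMK1 rose by a log2 fold change of 0.67 (SE 0.079, edgeR adjusted p = 2.98e-05), and CLK4 by 0.62 (SE 0.13, edgeR adjusted p = 0.00307). PRPF4B and SRPK1 passed the FDR alone, at 0.50 and 0.40 (edgeR adjusted p = 0.00959 and 0.00734). SF1 and CLK3 did so with lower levels, at −0.33 and −0.30 (edgeR adjusted p = 0.00300 and 0.00959), as did 11.7% of all genes. The share of all genes that passed the FDR with a higher level was not counted here. With the GC and length correction neither UHMK1, at 0.34 (edgeR adjusted p = 0.0254), nor CLK4, at 0.29 (edgeR adjusted p = 0.148), was called. Without the correction, no pair of neighbouring means of DYRK1A, SRPK2 or CLK1 passed the FDR.

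The summed level of the 9 kinases, without SF1, was 728 and 730 CPM in HCT-8 and 1019 and 1048 CPM in HCT-8/FU. It was 727 and 650 CPM with CM of HCT-8, and 839 and 824 CPM with CM of HCT-8/FU. UHMK1 accounted for 16.4% and 18.5% of the sum in HCT-8 and for 28.0% and 27.3% in HCT-8/FU. Its share was 15.3% and 18.8% with CM of HCT-8, and 24.4% and 24.6% with CM of HCT-8/FU. A sum of CPM is weighted towards long transcripts, and the shares were not tested.

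Levels of different genes were compared per length, as RPKM (CPM per kilobase) over the union of a gene's annotated exons. SF1 had the highest RPKM of the 10 members in all 4 groups, from 43.4 ± 1.95 (SD, n = 2) in HCT-8/FU to 56.6 ± 1.28 (SD, n = 2) in HCT-8. UHMK1 ranked 5 of 10 in HCT-8, at 13.8 ± 1.24 RPKM (SD, n = 2), and 2 of 10 in HCT-8/FU, at 30.9 ± 0.0853 RPKM (SD, n = 2). In HCT-8/FU the next genes were SRPK1 at 25.9 ± 3.03 RPKM (SD, n = 2) and CLK1 at 23.5 ± 0.925 RPKM (SD, n = 2). The spread of SRPK1 and CLK1 overlapped, so that their order there is not resolved. The lowest levels belonged to DYRK1A and CLK4, at 3.29 ± 0.138 and 2.57 ± 0.442 RPKM (SD, n = 2) in HCT-8.

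This order depended on the length used. With the length of the Ensembl canonical transcript, chosen as an alternative after the data were seen, SF1 stayed first in all 4 groups, but CLK1 and CLK3 came next. CLK3 then stood at 49.8 ± 0.124 RPKM in HCT-8 (SD, n = 2), against 4.68 ± 0.0117 RPKM (SD, n = 2) over its 19697 annotated exonic bases. UHMK1 ranked 6 in HCT-8 and 5 in HCT-8/FU under that length, and DYRK1A ranked last in all 4 groups. The counts per gene do not show which transcripts were used.

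**Figure D3:**
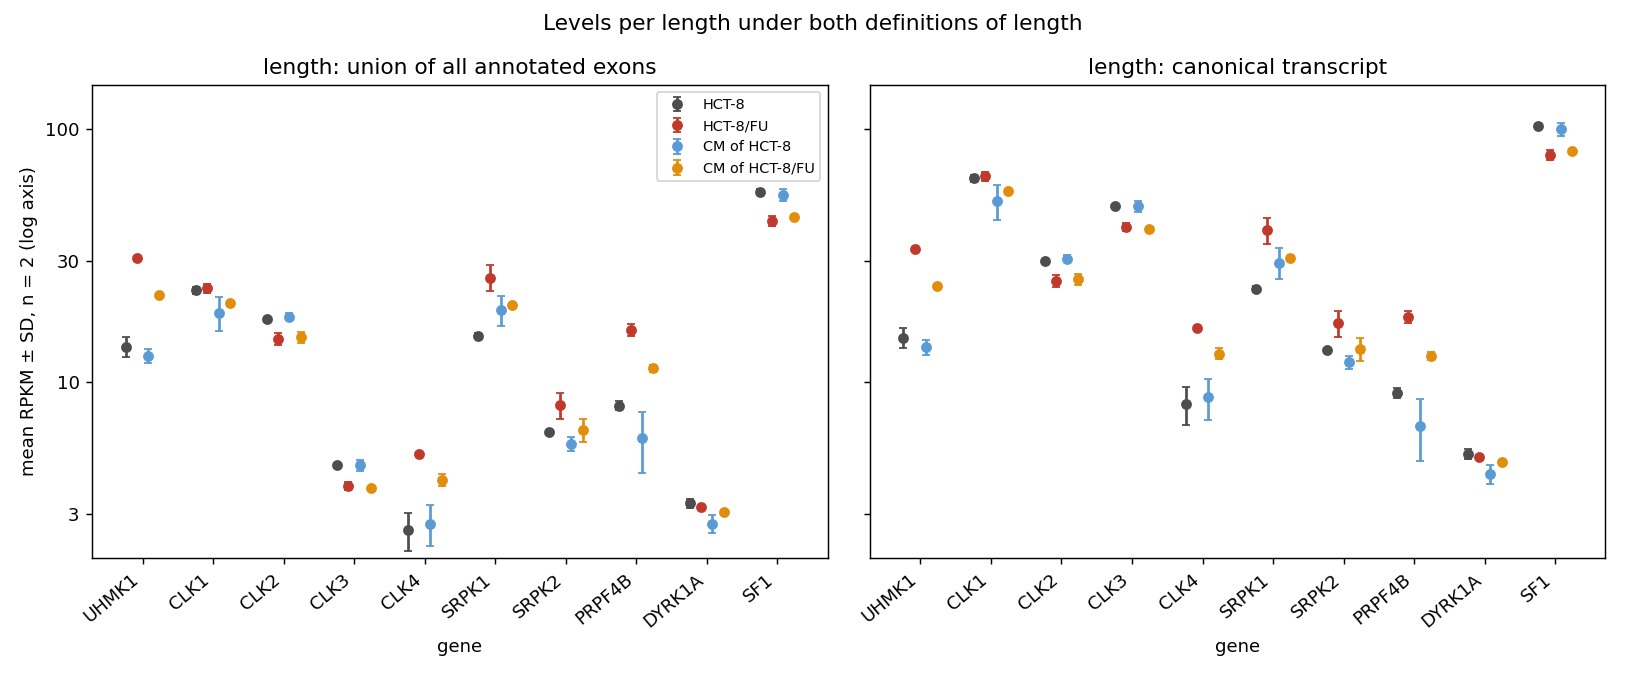
Mean RPKM (vertical log axis) with SD over 2 replicates for the 10 genes in the 4 groups, over the union of exons (left) and over the canonical transcript (right). SF1 is the highest on both sides, whereas CLK3 moves from 4.68 RPKM in HCT-8 on the left to 49.8 RPKM on the right.

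Base composition moved with these differences. The exonic GC content was 37.0% in CLK4 and PRPF4B, 37.4% in UHMK1, 39.0% in CLK1, 41.0% in SRPK2, 42.4% in DYRK1A and 45.5% in SRPK1. It was 51.6% in CLK3, 55.6% in CLK2 and 56.4% in SF1, the members with negative values in both comparisons. Across 19857 genes, which are not independent replicates, the Spearman correlation of GC content with the log2 fold change was −0.397 for HCT-8/FU and −0.398 for the CM comparison. It was −0.535 between both groups on the resistant side. Of the 2786 genes with under 40% GC, 43.7% were called higher in HCT-8/FU and 36.7% with CM of HCT-8/FU, at median log2 fold changes of 0.67 and 0.56. CLK1, which is also under 40% GC, was not among them in either comparison.

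Correcting every library for GC content and length, both taken over the union of exons, removes every change that follows these properties, whatever its origin. With it, SRPK1 was the only one of the 10 members called in the first comparison (log2 fold change 0.67, SE 0.12, edgeR adjusted p = 8.58e-04), where 15.2% of all genes were called in either direction. UHMK1 kept a log2 fold change of 0.52 (SE 0.10, edgeR adjusted p = 0.00138, the highest of its 17 alternatives), under the fold threshold. PRPF4B stood at 0.36 (edgeR adjusted p = 0.0429) and CLK4 at 0.32 (edgeR adjusted p = 0.0982). CLK1, DYRK1A and CLK3 passed the FDR with negative values under the correction, at −0.46 (edgeR adjusted p = 0.00263), −0.45 (edgeR adjusted p = 0.00334) and −0.29 (edgeR adjusted p = 0.0366), as did 16.0% of all genes. The correction was not repeated with the GC content and length of the canonical transcript.

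In the second comparison no member was called by edgeR with the correction, where 4.84% of all genes were called, and 4 had an unadjusted p under 0.05. The log2 fold changes were 0.32 for PRPF4B (edgeR adjusted p = 0.130), 0.17 for UHMK1 (edgeR adjusted p = 0.341) and −0.02 for CLK4 (edgeR adjusted p = 0.959). CLK3 passed the FDR at −0.40 (edgeR adjusted p = 0.0141) and was the only member to do so, where 5.80% of all genes passed with a lower level. The difference between the comparisons was kept for SRPK1, at 0.67 (SE 0.17, edgeR adjusted p = 0.0243). Whether the relation with GC content arose in the cells or in the preparation of the libraries was not tested.

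**Figure D4:**
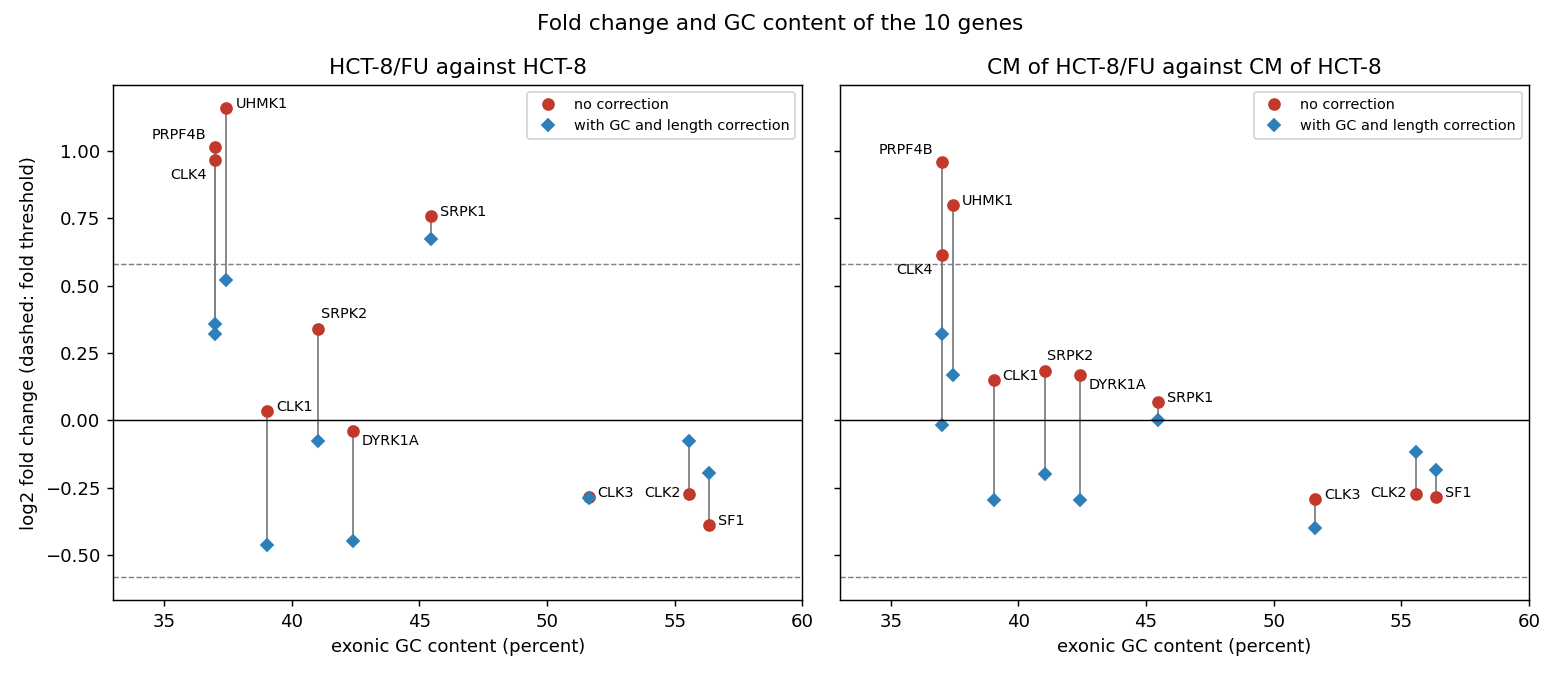
Log2 fold change (vertical axis) against exonic GC content in percent (horizontal axis) for the 10 genes in both comparisons, without correction (circles) and with the GC and length correction (diamonds), joined by grey lines. UHMK1, CLK4 and PRPF4B lie at 37.0% to 37.4% GC and drop below the dashed fold threshold of 0.58 with the correction, whereas SRPK1 at 45.5% moves from 0.76 to 0.67 in HCT-8/FU against HCT-8.

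The genes with a pattern most like that of UHMK1 were found by the root mean square (RMS) difference of log2 CPM, centred on each gene's own mean, over the 8 libraries. Among 7961 protein-coding genes whose mean was 20 CPM or more, EIF5A2 was nearest, with an RMS difference of 0.0542. DPY19L4 (0.0792), BROX (0.0812), TGFBR1 (0.0857) and PRKDC (0.0868) followed. Their log2 fold changes lay between 1.03 (BROX) and 1.18 (DPY19L4) in HCT-8/FU against HCT-8, and between 0.62 (PRKDC) and 0.88 (BROX) with CM of HCT-8/FU. Values near those of UHMK1 follow from the way these genes were picked, over the same libraries. GC contents ran from 33.9% in EIF5A2 to 43.0% in PRKDC. Of the other 9 members, CLK4 stood nearest to UHMK1, at 267 in this order (RMS difference 0.189), and PRPF4B at 479 (0.223). SF1 stood farthest, at 5961 (0.691).

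Other genes of the pathway were taken from fixed lists, and in each the gene with the highest and the one with the lowest log2 fold change is named. Of all genes, 13.2% were called higher in HCT-8/FU and 8.12% lower. In the CM comparison these shares were 7.97% and 1.28%, and no list was tested against them. The share of all genes at an unadjusted p under 0.05 was not counted. Among 13 other kinases of the CMGC branch, the kinase group of the CLK, SRPK, DYRK and PRPF4B families, 2 rose and 3 fell in HCT-8/FU, and the median was −0.14 on the log2 scale. DYRK2 rose most (1.00, edgeR adjusted p = 9.98e-07) and DYRK3, which dissolves speckles and other condensates, fell most (−1.06, edgeR adjusted p = 1.26e-04). With CM of HCT-8/FU, 1 of the 13 rose, HIPK3 (0.96, edgeR adjusted p = 4.44e-06), and none fell by edgeR or DESeq2, although 2 were lower at an unadjusted edgeR p under 0.05. The lowest value there was −0.40 in SRPK3 (edgeR adjusted p = 0.240), and the median was 0.03. With the GC and length correction DYRK2 and HIPK3 were not called, at 0.57 for DYRK2 in HCT-8/FU and 0.56 for HIPK3 in the CM comparison, while DYRK3 kept its call at −1.24. Of the 13, 3 were called lower in HCT-8/FU with the correction, DYRK3 among them.

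Of 10 UHM proteins and partners, which include the U2AF subunits that pair with SF1 at the 3′ splice site, 2 rose and 2 fell in HCT-8/FU, with a median of −0.02. HTATSF1, a U2 snRNP factor, rose most (0.64, edgeR adjusted p = 0.00135). U2AF1 had the lowest value (−0.83, edgeR adjusted p = 0.0106), which is uncertain because a near-identical copy of this gene is annotated and reads can be split between the copies. In the CM comparison none of the 10 was called by edgeR or DESeq2, although 5 had an unadjusted edgeR p under 0.05, and the median was −0.15. SF3B1, a core protein of the U2 snRNP, was at 0.53 (edgeR adjusted p = 2.92e-04) and U2AF2 at −0.32 (edgeR adjusted p = 0.00779). The GC and length correction brought SF3B1 to 0.0081 in HCT-8/FU and to −0.036 in the CM comparison, while HTATSF1 and U2AF1 kept their calls in HCT-8/FU at 0.66 and −1.14. With the correction, 1 of the 10 was called higher and 2 lower in HCT-8/FU, and 1 was called lower in the CM comparison.

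Of 8 reported substrates and partners of UHMK1 other than SF1, 7 were tested. In HCT-8/FU 2 rose, with a median of 0.25 over the list. STMN1, the microtubule regulator stathmin, rose most (0.90, edgeR adjusted p = 1.58e-05) and EEF1A1 was lowest (−0.32, edgeR adjusted p = 0.00124), the latter uncertain because many processed copies of it exist. With the GC and length correction 2 of the 7 were called higher in HCT-8/FU, among them STMN1 at 0.85. In the CM comparison none of the 7 was called by edgeR or DESeq2, although 2 had an unadjusted edgeR p under 0.05, and the median was −0.14. SF3B1 (0.53) and EEF1A1 (−0.36, edgeR adjusted p = 9.20e-04) marked the extremes. COIL, which encodes the Cajal body protein coilin and is named here outside the rule, after its values were seen, stood at 0.16 (edgeR adjusted p = 0.481) in HCT-8/FU and −0.14 (edgeR adjusted p = 0.567) with CM of HCT-8/FU.

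Of 12 SR proteins, the substrates of SRPK and CLK kinases, 11 were tested and 2 rose in HCT-8/FU, with a median of 0.36. SRSF11 rose most (0.79, edgeR adjusted p = 1.20e-05), and SRSF9 was lowest at −0.22 (edgeR adjusted p = 0.112). In the CM comparison, 1 of the 11 rose, again SRSF11 (0.62, edgeR adjusted p = 2.46e-04), SRSF5 was lowest at −0.28 (edgeR adjusted p = 0.0187), and the median was −0.12. With the GC and length correction no SR protein was called by edgeR in either comparison, although 4 and 6 of them had an unadjusted p under 0.05, and SRSF11 stood at 0.15 and −0.0027.

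The 5 tri-snRNP proteins that PRPF4B phosphorylates or binds held no gene called by edgeR or DESeq2 in either comparison, although 1 had an unadjusted edgeR p under 0.05 in the first and 4 in the second. Their values ran from −0.57 (PRPF6, edgeR adjusted p = 5.59e-05) to −0.03 (PRPF3) in HCT-8/FU, and from −0.43 (PRPF31, edgeR adjusted p = 0.0112) to −0.18 (PRPF3) with CM of HCT-8/FU. The medians were −0.13 and −0.24. Among 8 phosphatases and targeting subunits, which reverse the action of the kinases, PPP1CB, a catalytic subunit of protein phosphatase 1, was the only one called in each comparison. It rose by 0.71 (edgeR adjusted p = 3.64e-06) and 0.61 (edgeR adjusted p = 3.68e-05). PPM1G was lowest in both, at −0.40 (edgeR adjusted p = 0.00141) and −0.45 (edgeR adjusted p = 0.00104), and the medians were −0.20 and −0.26. With the GC and length correction PPP1CB was not called, at 0.19 and 0.12, and the catalytic subunits of protein phosphatase 2A PPP2CA and PPP2CB, named after their values were seen, were called lower in HCT-8/FU, at −0.77 and −0.59.

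**Figure D5:**
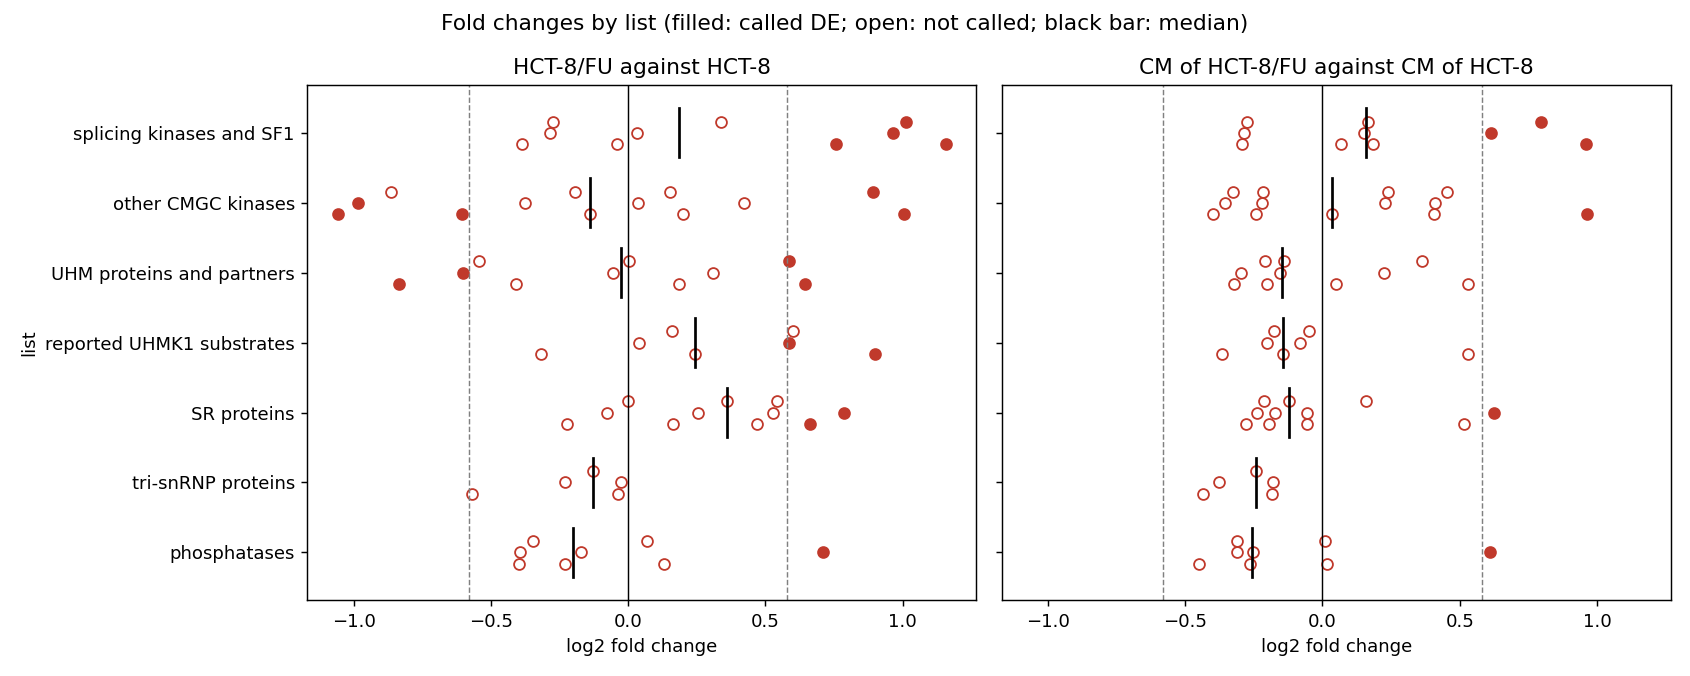
Log2 fold change (horizontal axis) of each tested gene of the splicing kinases with SF1 and of 6 further lists, in both comparisons; filled points are called DE, open points are not, black bars are list medians and dashed lines mark the fold threshold of 0.58. The splicing kinases hold 4 filled points in the first comparison and 3 in the other, and the tri-snRNP proteins hold none in either.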

How the data were processed

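Reads of 8 libraries were aligned by the authors with HISAT2 (GRCh38). HTSeq 0.11.2, a version taken from the submitters' processing notes, gave the raw counts per Ensembl gene that were deposited. The authors' DESeq2 tables of both comparisons (fold changes and p-values) were not used. Lines naming no gene took 59.2% to 70.3% of the records and were left out of library sizes and tests.

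Groups and replicate numbers came from the sample titles. No source says that replicates were separate cultures, so p-values measure the spread between these libraries, which may be technical. In each group the replicates were further apart than sampling noise allows, with median chi-square values of 1.03 to 2.15 against 0.455. Equal replicate numbers did not pair the libraries (correlations of deviations −0.12 to 0.13).

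Counts were tested with edgeR 4.0.16 in R 4.3.3. All 8 libraries entered 1 fit of 4 group means, with TMM normalization and filterByExpr. SE was taken as the size of the log2 fold change over the root of its F statistic. Positions, exons and GC content came from GENCODE 44, which held 56105 of the 64253 identifiers. The GC and length correction subtracts splines of 5 degrees of freedom per library. Alternatives were DESeq2 1.42.0, other scalings and filters, the FDR alone, a replicate block and leaving out each library. Median log2 fold changes of all genes moved by under 0.1 under each scaling. The fit was run on counts simulated from its own spread, without a GC relation, which cannot show how it performs on these data.

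The members and lists were chosen with earlier results of these data known. From each list the tested genes with the highest and lowest log2 fold change in the first 2 comparisons are named, and for UHMK1 the 5 genes nearest in pattern. Promoter sequences are those of RefSeq.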

Additional observations from a re-analysis of the deposited data

Results flagged for a closer look

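SRPK1 was flagged because its log2 fold change was larger in HCT-8/FU against HCT-8, where it was 0.76, than in the CM comparison, where it was 0.07, by 0.69 (edgeR adjusted p = 0.00448). Both values with CM of HCT-8/FU lay inside the range of the replicates with CM of HCT-8.

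Among the genes named from the lists, 3 were flagged in the same way. STMN1 differed by 1.10 (edgeR adjusted p = 3.34e-04), with 0.90 in HCT-8/FU and −0.20 in the CM comparison, and stood at 149 CPM on average in HCT-8, 278 in HCT-8/FU, 248 with CM of HCT-8 and 216 with CM of HCT-8/FU. DYRK2 differed by 0.60 (edgeR adjusted p = 0.00762), with 1.00 and 0.41, and was not called with the GC and length correction (0.58). DYRK3 differed by −0.84 (edgeR adjusted p = 0.0266), with −1.06 and −0.22, and was called with the correction too (−0.87). Compared to HCT-8, STMN1 rose by 0.75 on the log2 scale in the CM control (edgeR adjusted p = 3.18e-04) and DYRK3 fell by 0.58 (edgeR adjusted p = 0.0186), whereas DYRK2 was at 0.25 (edgeR adjusted p = 0.0791).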

How the results depend on the processing

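Of 489 values of single members under the alternatives, 449 kept their direction and their side of the threshold. Another 15 lost their call but kept their direction, 1 gained it and 24 changed sign, among them the CLK4 calls lost with the GC and length correction. These values cover all members in the first and the CM comparison. For the CM control against HCT-8 and for the difference between the comparisons they cover selected members only. With the FDR alone, 8 members passed in the first comparison, 6 in the CM comparison and 4 in the third, of the CM control with unconditioned HCT-8. The GC and length correction left 1 call in the first and 0 in the CM comparison, with the replicate block as without it. It also changed signs, all of values that were not called except for CLK4. In the first comparison CLK1 went to −0.46 and, with the replicate block, −0.47, and SRPK2 to −0.0757 and −0.0744. In the second these pairs were −0.293 and −0.293 for CLK1, −0.0174 and −0.0189 for CLK4, −0.200 and −0.200 for SRPK2, and −0.293 and −0.294 for DYRK1A. UHMK1 went to 0.171 and 0.171 in the third. DYRK1A in the first comparison turned to 0.0484 when TMM took CM of HCT-8 replicate 2 as its reference. The difference between the comparisons for PRPF4B turned to −0.00125 without the filter on low counts and to −0.0316 with the term for libraries of many records not aligned. The cause was not tested.

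Leaving out each library in turn gave 0 to 1 called members in the third comparison and 0 to 1 in the difference between the comparisons. Log2 fold changes of CLK1 ran from −0.0314 to 0.0633 in the first and from −0.00919 to 0.306 in the CM comparison, that of SRPK1 in the latter from −0.0724 to 0.208, and the difference for PRPF4B from −0.222 to 0.340. The order of the 4 group means was kept by 5 to 10 members, with 5 without CM of HCT-8 replicate 2, and by 1, PRPF4B, with the GC and length correction. The replicate block by itself changed no call of a member, leaving 4, 3 and 0 in the 3 comparisons. Of all genes, 4325, 1878, 1655 and 1561 were called in the first, the second, the third and the difference. With the FDR alone these were 7442, 4005, 3949 and 2350. The correction gave 982 in the second and 1103 in the third, and 924 and 1048 with the replicate block. Depth limits CLK4 most, with 136 counts in HCT-8 replicate 1.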
